A study of Urocitellus parryii with 3 samples.

Results

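miR-193, miR-193b and miR-365 were followed at 3 stages of the year in the liver of a hibernator, Urocitellus parryii (arctic ground squirrel). They are the 3 array entries named mmu-miR-193, mmu-miR-193b and mmu-miR-365, taken by name from the 567 mouse miRNA entries on microarrays designed for the mouse. The stages were post-reproduction, outside the hibernation season, late torpor (spelled "late topor" in the labels), when body temperature and metabolism are low, and early arousal, when the animal rewarms. Liver total RNA of the animals of a stage was combined, equally by amount, into 1 pool, and each pool went with Cy3 label onto 1 array. The number, age and sex of the animals in a pool are not given in the sources used here. With 1 array per stage there was no spread between animals, pools or arrays, so no test between stages was possible. A difference between stages cannot be told apart from one between pools or between the places of the arrays.

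miRNAs are short RNAs that pair with messenger RNAs, mainly through the seed near their 5′ end, and lower their output. miR-193 and miR-193b are close relatives with a shared seed, whereas miR-365 has a seed of its own. In the mouse genome their hairpins lie as a pair of clusters, each holding a member of the miR-193 family beside a copy of miR-365, and both copies give the same mature miR-365. In cultured mouse cells the cluster of miR-193b and miR-365 favours brown fat differentiation, among other targets by repressing Runx1t1, although brown fat was reported to form in mice that lack that cluster. In human tumour cells miR-193b is known to restrain growth through targets such as cyclin D1. The tissue here was liver, not fat, so the name brown fat refers to this background and not to the samples.

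Each miRNA had 2 overlapping probes with 10 spots per array, which gave 60 spots per array in all. The probe targets of miR-193 lie on mouse chromosome 11 at 79525516 to 79525532 (mm9, as the files give it) for the longer probe, and the shorter one starts 1 base later. The targets of miR-365 end at 79539990 on the same chromosome and start at 79539969 for the longer probe. The miR-193 and miR-365 targets are 14.4 kilobases apart. Those of miR-193b lie on chromosome 16, at 13449668 to 13449684 for the longer probe. The files list no second position for miR-365, so its signal cannot be divided between the copies. Whether the probes of miR-193 and miR-193b share signal was not tested, nor was the match of these mouse probes to the squirrel's miRNAs.

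All kept spots of the 6 probes were marked well above background on every array and none was saturated, so all 3 miRNAs were measured at each stage. Over the whole array 143 mouse miRNAs were detected in post-reproduction, 158 in late torpor and 152 in early arousal, and 135 were measured on all 3. miR-122, the main miRNA of hepatocytes, had 49890 intensity units in its brightest probe in post-reproduction, 59410 in late torpor and 51250 in early arousal. The 672 negative control spots had a median of 1.21 intensity units in post-reproduction (SD 11.6, highest spot 176.1), 1.69 in late torpor (SD 4.13, highest 86.03) and 1.36 in early arousal (SD 3.61, highest 57.25). All spots of the shorter miR-193 probe were below the highest control spot of their array.

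miR-193 was brightest on the late torpor array. Its longer probe had 240.5 to 275 intensity units over 10 spots in post-reproduction (median 257.7), 309.4 to 332 over 9 spots in late torpor (median 329.2) and 255.3 to 276.6 over 9 spots in early arousal (median 268). Its shorter probe had 29.92 to 37.92 units in post-reproduction (median 34.13), 35.09 to 46.17 in late torpor (median 40.21) and 32.97 to 38.35 in early arousal (median 34.49). In the longer probe the kept late torpor spots lay above all kept spots of the other arrays, while post-reproduction and early arousal overlapped. An early arousal spot of that probe, left out as a flagged outlier, had 313.3 units, inside the late torpor range. In the shorter probe the spots of all 3 arrays overlapped as deposited.

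miR-193b, the other member of that seed family, was brightest as deposited on the post-reproduction array. Its longer probe had 1464 to 1578 units in post-reproduction (median 1541), 1262 to 1463 in late torpor (median 1378) and 1143 to 1302 in early arousal (median 1248). Its shorter probe had 636.2 to 724.7 units in post-reproduction (median 691.3), 545.8 to 599.5 in late torpor (median 569.3) and 513.1 to 606.7 in early arousal (median 555.9). Post-reproduction spots lay above all spots of the other stages in both probes, and the late torpor and early arousal spots overlapped. These are values before the arrays were scaled to each other, and after scaling the spots of all stages overlapped in both probes.

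miR-365 was brightest on the early arousal array. Its longer probe had 1055 to 1195 units in post-reproduction (median 1101), 1054 to 1227 in late torpor (median 1115) and 1237 to 1378 in early arousal (median 1307). Its shorter probe had 770.8 to 898.6 units in post-reproduction (median 830.6), 807.7 to 928.5 in late torpor (median 869.4) and 1032 to 1114 in early arousal (median 1068). Early arousal spots lay above all spots of the other stages in both probes, and post-reproduction and late torpor overlapped. Such gaps were common on these arrays. After scaling, spots did not overlap in 35.4 to 52.0% of all mouse probes detected on all arrays, depending on the comparison. For deposited values this share was not counted.

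**Figure D1:**
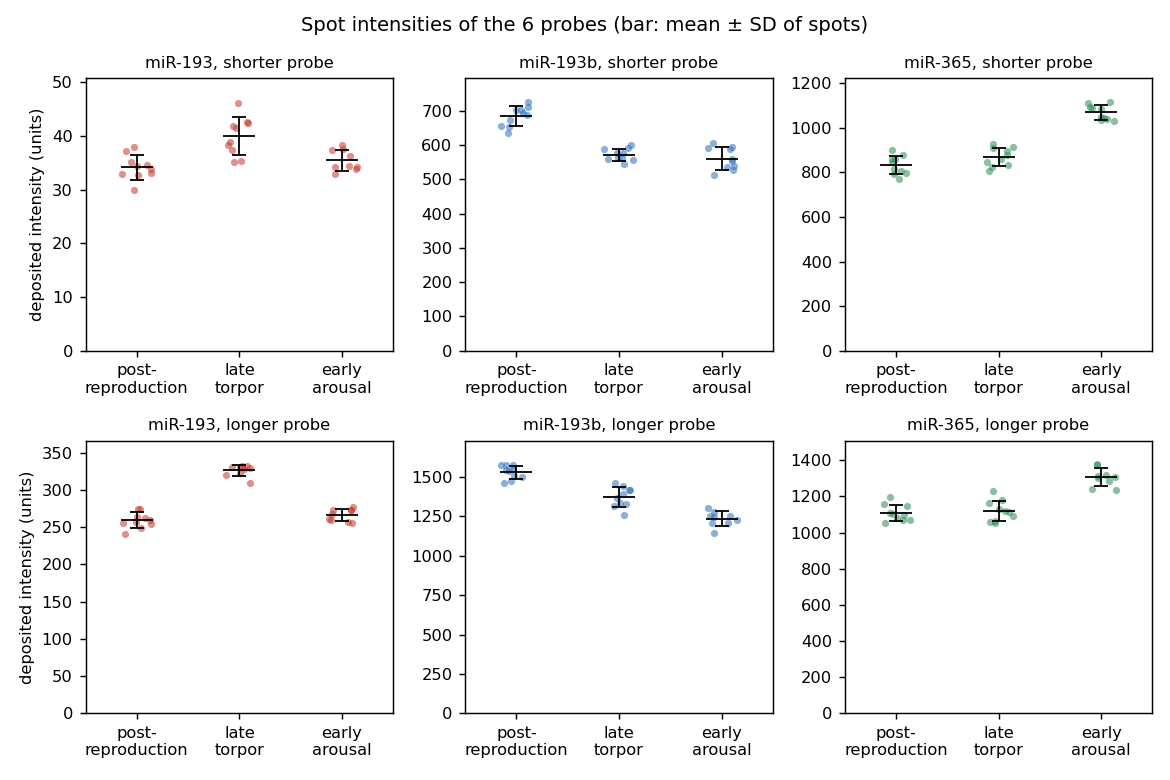
Deposited intensity of each kept spot (y axis, intensity units) on the post-reproduction, late torpor and early arousal arrays (x axis) for the 2 probes of miR-193 (red), miR-193b (blue) and miR-365 (green), with black bars for the mean ± SD of the spots. The longer miR-193 probe is highest in late torpor (median 329.2), both miR-193b probes are highest in post-reproduction and both miR-365 probes are highest in early arousal.

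To compare stages, each array was scaled on its log2 values by the 75th percentile of the 250 probes detected on all 3 arrays, which was 398.3 intensity units in post-reproduction, 349.1 in late torpor and 350.4 in early arousal. Differences are log2 differences of scaled intensity, averaged over the 2 probes, with a standard error (SE) and 95% intervals of folds from the spread of spots alone. To pass the rule of size, a miRNA needed a log2 difference of 1 or more in size (2-fold), above 2 SE, with the same sign in all its probes. On this scale miR-193 was highest in late torpor, then early arousal, then post-reproduction. miR-365 was highest in early arousal, then late torpor, then post-reproduction. miR-193b was lowest in early arousal, and its late torpor and post-reproduction values did not differ beyond the spread of spots.

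The first comparison set late torpor against post-reproduction. miR-193 was 1.38-fold higher in late torpor (95% interval from spots 1.33 to 1.44), with a log2 difference of 0.47 ± 0.03 (SE). The 2 probes gave 0.52 and 0.41, and in both the scaled late torpor spots lay above all scaled post-reproduction spots. miR-365 was 1.17-fold higher (1.14 to 1.21), with a log2 difference of 0.23 ± 0.02 and no overlap of scaled spots in either probe. miR-193b had a log2 difference of -0.017 ± 0.017 and a fold of 0.988 (0.966 to 1.01), which includes no difference.

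None of the 3 passed the rule of size in this comparison. Of the measured miRNAs 2.22% passed it, all of them as higher (2.22% higher and 0.0% lower). A difference above 0 was found in 2 of the 3, miR-193 and miR-365, against 65.2% of the measured miRNAs, and one below 0 in miR-193b, against 34.8%. The scaled spots did not overlap in 4 of the 6 probes, against 47.2% of all mouse probes detected on all arrays. By log2 difference, miR-193 ranked 21st from the top of the 135 measured miRNAs, between miR-340-5p (0.48) and miR-30e* (0.45). miR-365 ranked 57th, between miR-125b-5p (0.23) and miR-872 (0.19), and miR-193b 93rd, between miR-199a-5p (-0.016) and miR-199b (-0.025). The median of all 135 was 0.13. miR-193 stayed above 0 under all 14 other settings (0.077 to 0.52), whereas miR-365 went as low as -0.16 and was below 0 in 3 of them. miR-193b ran from -0.41 to 0.034 and was above 0 in 1 of them.

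Markers of other cells differed between these arrays too, with sums given here and below before scaling. The 3 red blood cell miRNAs (miR-144, miR-451 and miR-486) summed to 4144 intensity units in late torpor and 1993 in post-reproduction, and all 3 were past the rule of size, and higher under each of the 6 scalings. The leukocyte list of 6, of which 5 were measured, summed to 884.3 units in late torpor and 736.6 in post-reproduction, with 4 of the 5 higher (3 of the 5 under 1 of the scalings). The muscle list of 4 had no measured member and summed to 54.88 and 24.27 units at the same stages. Both endothelial miRNAs (miR-126-3p and miR-126-5p) were higher in late torpor, with a median log2 difference of 0.31 and sums of 1187 units in late torpor and 1048 in post-reproduction, but neither was higher under 1 of the scalings. All 4 hepatocyte miRNAs were higher as well (median 0.27), with 0 to 4 of the 4 higher over the scalings. The part of these cells in the differences of miR-193 and miR-365 was not tested. In bulk liver, fewer cells of a type and less RNA per cell cannot be told apart.

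The second comparison set early arousal against post-reproduction. miR-365 was 1.40-fold higher in early arousal (95% interval from spots 1.36 to 1.43), with a log2 difference of 0.48 ± 0.02 (SE). Its probes gave 0.55 and 0.42, and the early arousal spots lay above all post-reproduction spots in both. miR-193 was 1.17-fold higher (1.14 to 1.21), with 0.23 ± 0.02, and the scaled spots overlapped in its shorter probe and not in the longer one. miR-193b had a fold of 0.924 (0.900 to 0.949) and a log2 difference of -0.11 ± 0.02, with overlapping scaled spots in both probes.

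None of the 3 passed the rule of size here either. Of the measured miRNAs 3.7% passed it, 2.96% as higher and 0.741% as lower. A difference above 0 was found in 2 of the 3, miR-193 and miR-365, against 55.6% of all measured, and one below 0 in miR-193b, against 44.4%. The scaled spots did not overlap in 3 of the 6 probes, against 52.0% of all mouse probes detected on all arrays. miR-365 ranked 14th from the top, between miR-15b (0.50) and miR-181a (0.47). miR-193 ranked 42nd, between miR-203 (0.24) and miR-30d (0.23), and miR-193b 89th, between miR-204 (-0.099) and miR-338-3p (-0.12). The median of all 135 was 0.062. miR-365 stayed above 0 (0.11 to 0.55) and miR-193b below 0 (-0.49 to -0.073) under all 14 other settings, while miR-193 ran from -0.14 to 0.30 and was below 0 in 2 of them. Before scaling, the red blood cell sum was 2507 units in early arousal, against 1993 in post-reproduction, and the leukocyte sum was 632.6 against 736.6. After scaling all 3 red blood cell miRNAs were higher, with 2 to 3 of the 3 over the scalings. Of the 5 measured leukocyte miRNAs 1 was higher and 4 were lower, with 0 to 1 higher over the scalings. Both endothelial miRNAs were higher in early arousal (median log2 difference 0.31), though neither was under 1 of the scalings, and 3 of the 4 hepatocyte miRNAs were higher (median 0.11), with 0 to 4 over the scalings. Their part was not tested.

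Between early arousal and late torpor, the pair of stages inside the hibernation season, miR-193 and miR-365 lay on opposite sides of 0. miR-365 was 1.19-fold higher in early arousal (95% interval from spots 1.16 to 1.225), with a log2 difference of 0.25 ± 0.02 (SE) and no overlap of spots in either probe. miR-193 had a fold of 0.849 (0.819 to 0.879) and a log2 difference of -0.24 ± 0.03. Its longer probe gave -0.30 with no overlap of kept spots, and its shorter probe gave -0.17 with overlap. miR-193b had a fold of 0.935 (0.910 to 0.961) and a log2 difference of -0.097 ± 0.020.

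None of the 3 passed the rule of size, which 2.96% of the measured miRNAs passed, 1.48% as higher and 1.48% as lower. A difference below 0 was found in 2 of the 3, miR-193 and miR-193b, against 65.2% of all measured, and one above 0 in miR-365, against 34.8%. The scaled spots did not overlap in 3 of the 6 probes, against 35.4% of all mouse probes detected on all arrays. miR-365 ranked 16th from the top of 135, between miR-10a (0.27) and miR-92a (0.24). miR-193b ranked 69th, between miR-127 (-0.094) and miR-126-3p (-0.098), and miR-193 ranked 101st, next to miR-29c* and miR-29c (both -0.24). The median of all was -0.094. miR-193 stayed below 0 (-0.49 to -0.027) and miR-365 above 0 (0.0060 to 0.46) under all 14 other settings, and miR-193b ran from -0.35 to 0.11. Before scaling, the red blood cell sum was 2507 units in early arousal, against 4144 in late torpor. The leukocyte sum was 632.6 against 884.3. All 3 red blood cell and all 5 measured leukocyte miRNAs were lower in early arousal under each of the 6 scalings. The median log2 difference was -0.0048 for the endothelial pair and -0.12 for the hepatocyte miRNAs, and both medians changed sign over the scalings. Their part was not tested.

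**Figure D2:**
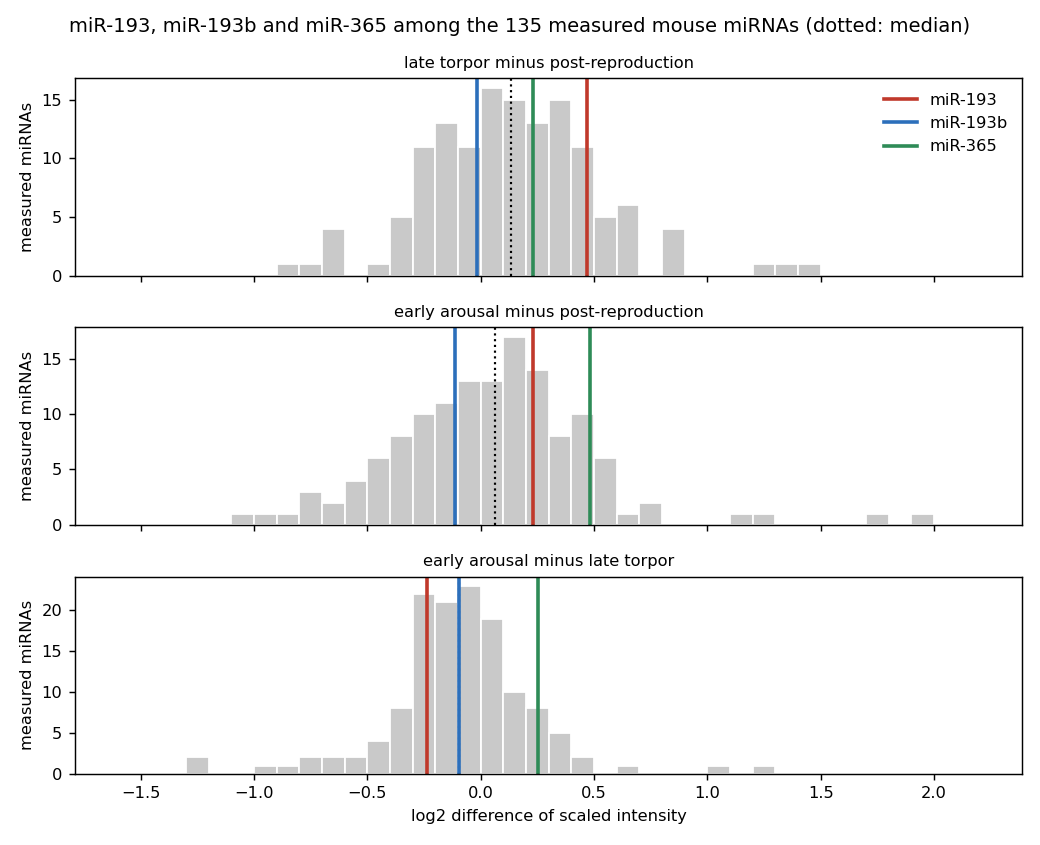
Distribution of the log2 differences of scaled intensity (x axis) over the 135 measured mouse miRNAs (y axis, number of miRNAs in bins), with a panel for each comparison, coloured lines for miR-193 (red), miR-193b (blue) and miR-365 (green) and a dotted line at the median. miR-193b lies at or below the median in each panel, and miR-365 lies in the upper part of the distribution in early arousal against post-reproduction (0.48) and against late torpor (0.25).

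**Figure D3:**
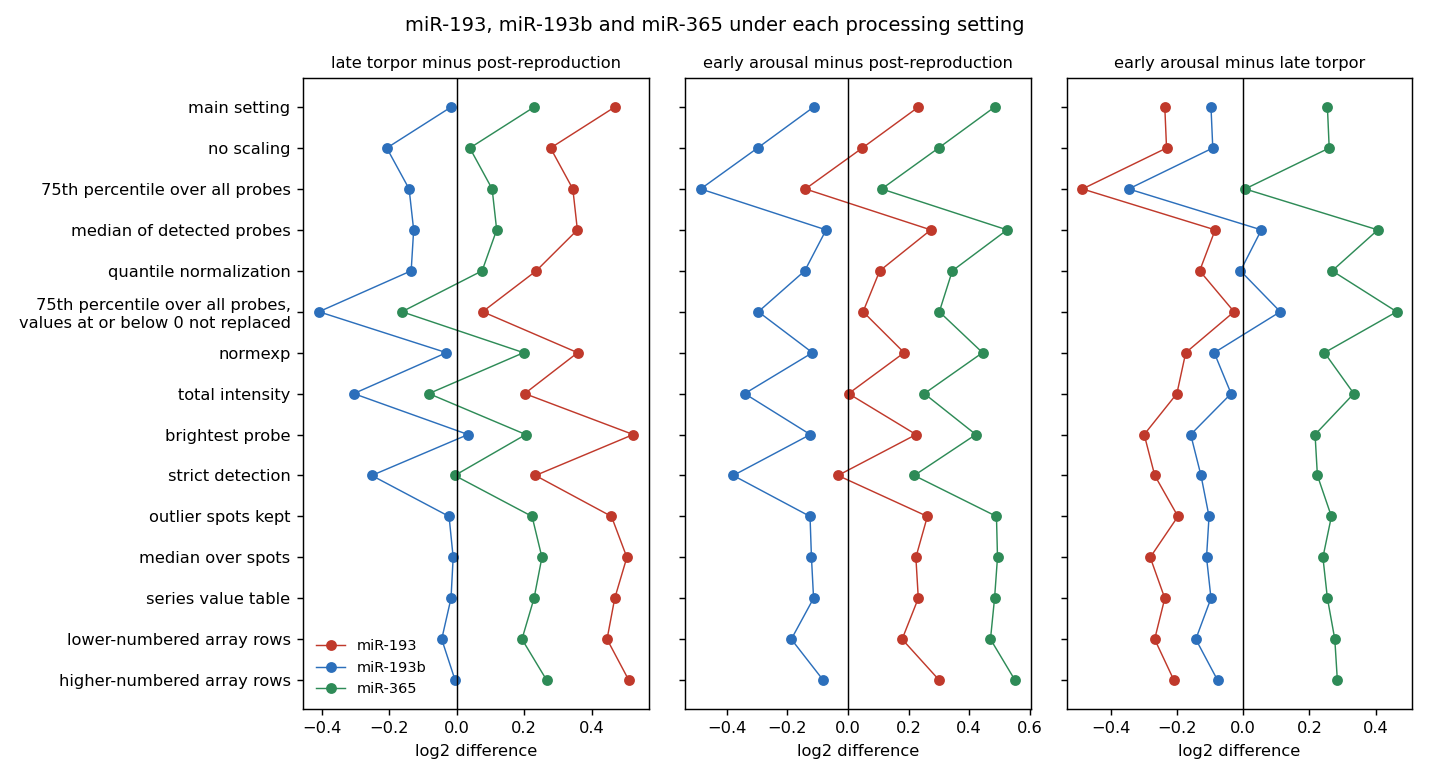
Log2 difference of scaled intensity (x axis) of miR-193 (red), miR-193b (blue) and miR-365 (green) in each comparison (panels) under the main setting and 14 others (rows). The 3 lines move sideways together in rows that shift a whole array, so that miR-365 in late torpor minus post-reproduction runs down to -0.16. In other rows, such as the brightest probe, they move unequally. The order of the colours in a panel stays the same.

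Many of the settings shift a whole array, so the 3 miRNAs were also set against each other, where such a shift cancels. In late torpor against post-reproduction, miR-193 lay above its relative miR-193b by 0.49 ± 0.03 (SE) on the log2 scale, or 1.40-fold (95% interval from spots 1.34 to 1.46). In early arousal against post-reproduction, miR-365 lay above miR-193b by 0.60 ± 0.03, or 1.51-fold (1.46 to 1.57). In early arousal against late torpor, miR-365 lay above miR-193 by 0.49 ± 0.03, or 1.405-fold (1.345 to 1.47). Both have hairpins in a cluster on mouse chromosome 11, but the miR-365 signal cannot be divided between that copy and its other one. Joint transcription was not tested.

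The other relative differences were smaller. miR-365 lay above miR-193b by 0.25 in late torpor against post-reproduction and by 0.35 in early arousal against late torpor. Relative to miR-193, miR-365 was at -0.24 in late torpor against post-reproduction and at 0.25 in early arousal against post-reproduction. miR-193 relative to miR-193b was at 0.35 in early arousal against post-reproduction and at -0.14 in early arousal against late torpor. Each of the 9 kept its sign in every pairing of the probes and under all 14 other settings, some of which cancel by construction. The value nearest 0 over the probe pairings was -0.016, for miR-193 relative to miR-193b in early arousal against late torpor. That is smaller than the SE of 0.033 of their averaged difference. Differences of this size were common on these arrays: of all 9045 pairs of measured miRNAs, 34.3%, 29% and 22.4% lay at least as far apart as the 3 pairs named first, in the order of the comparisons. For the smaller relative differences this share ran from 35.6 to 69.9%.

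**Figure D4:**
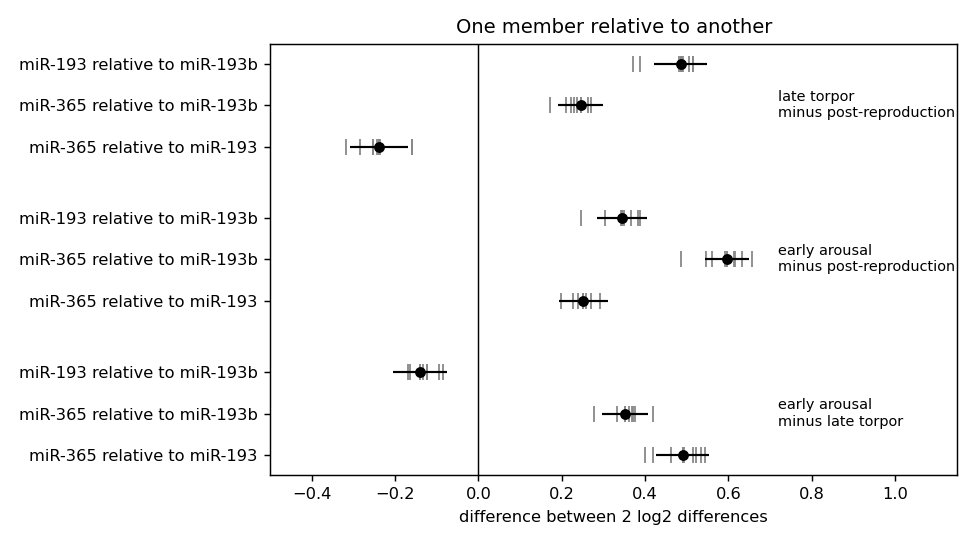
Log2 difference of 1 miRNA minus that of another (x axis) for the 3 pairs (rows) in each comparison (blocks), as black points with 95% intervals from spots, and grey ticks for the 14 other settings. Every tick lies on the same side of 0 as its point, and the largest value is that of miR-365 relative to miR-193b in early arousal minus post-reproduction (0.60).

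Other miRNAs had nearly the same course over the 3 arrays. By the distance between scaled log2 values centred on their mean over the arrays, those most like miR-193 were miR-93 (0.034), miR-30e* (0.035) and miR-652 (0.051), against a median distance of 0.34 to the measured miRNAs. Those most like miR-193b were miR-140 (0.038), miR-24 (0.039) and let-7f (0.048), with a median of 0.28. Those most like miR-365 were miR-181a (0.061), miR-139-5p (0.071) and miR-322 (0.0785), with a median of 0.40. With 3 arrays such likeness is a description only.

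The opposite strand of the miR-193 hairpin, miR-193*, was not well above background in any of its 20 spots on any array. Its brightest probe averaged 5.56 intensity units in post-reproduction, 5.28 in late torpor and 7.38 in early arousal. No star strand of miR-193b or miR-365 is among the entries used here.

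Other miRNAs with a role in brown fat, mostly known from mouse cells, did not share 1 direction. Of 12 that favour it, 6 were measured, and miR-32, miR-129-5p, miR-182, miR-196a, miR-328 and miR-455 were not detected on any array. The lists were put together with earlier results of these data known. The 6 had a median log2 difference of 0.013 in late torpor against post-reproduction, with 3 higher and 3 lower, beside a median of 0.13 and 65.2% higher for all measured miRNAs. miR-203 was the highest there (0.12), and miR-378, encoded in an intron of Ppargc1b, a coactivator gene of mitochondrial metabolism, was the lowest (-0.77). In early arousal against post-reproduction 5 of the 6 were higher, with a median of 0.19, beside 0.062 and 55.6% for all measured. miR-30b was the highest at 0.30, and miR-378 the lowest at -1.08, the only one past the rule of size. In early arousal against late torpor 5 of the 6 were higher as well, with a median of 0.11, beside -0.094 and 34.8% for all measured, and miR-26b was the highest at 0.41 and miR-378 the lowest at -0.31. Over the 6 scalings the counts of higher ones ran from 0 to 3, 0 to 5 and 2 to 5 of 6, in the order of the comparisons.

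Of 13 miRNAs that restrain brown fat, 10 were measured. In late torpor against post-reproduction 7 were higher, against 65.2% of all measured miRNAs, with a median of 0.098 beside 0.13 for all measured, from -0.26 for miR-27a to 0.43 for miR-93. In early arousal against post-reproduction 4 were higher, against 55.6% of all measured, with a median of -0.098 beside 0.062, from -0.90 for miR-34a, a p53 target, to 0.25 for miR-125b-5p. In early arousal against late torpor 2 were higher, against 34.8% of all measured, with a median of -0.27 beside -0.094, from -0.98 for miR-34a to 0.22 for miR-214. None passed the rule of size. The counts of higher ones ran from 2 to 7, 0 to 5 and 0 to 3 of 10 over the scalings, in the order of the comparisons. miR-155, which represses a brown fat regulator, was not detected on any array. miR-133a was not detected in post-reproduction or early arousal, and miR-133b was not detected in post-reproduction.

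**Figure D5:**
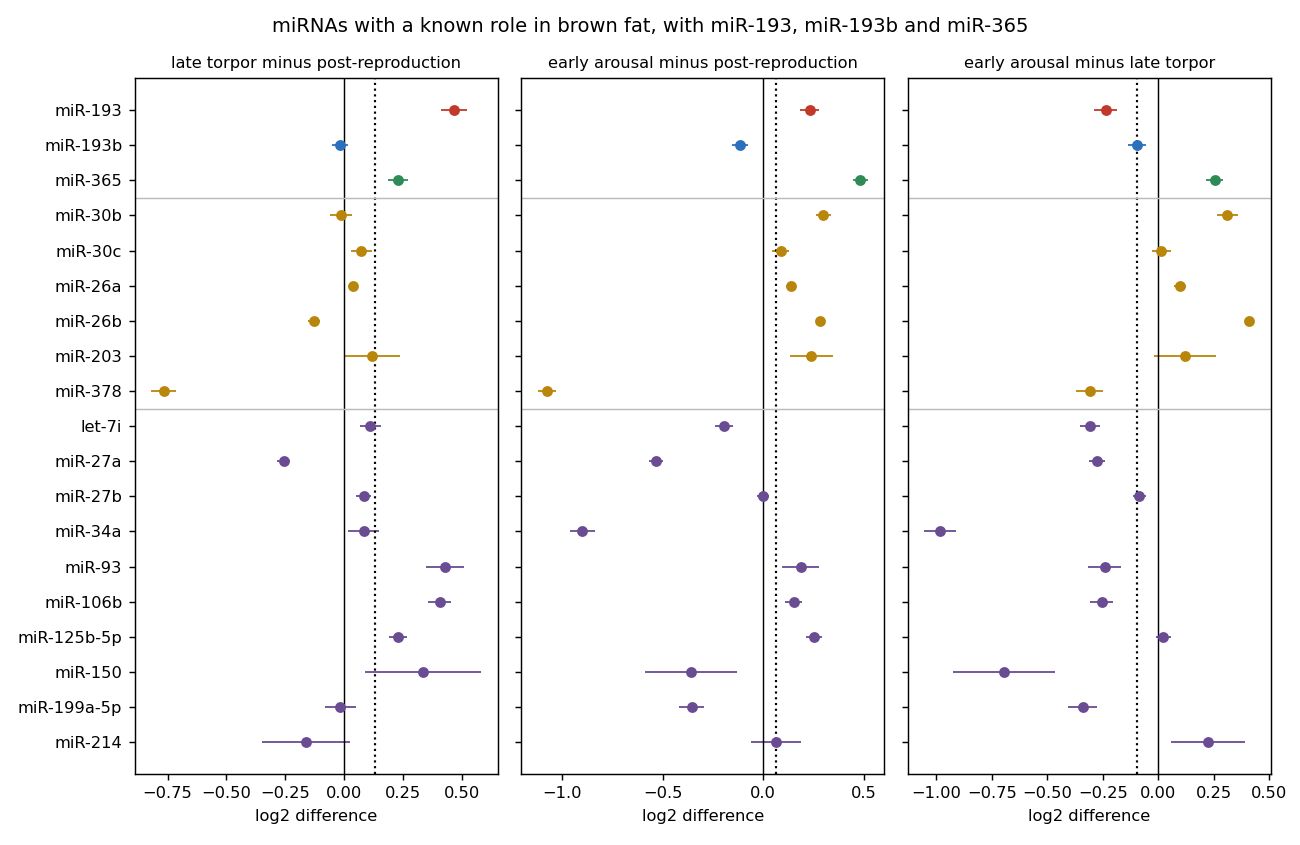
Log2 difference of scaled intensity (x axis, bars are 95% intervals from spots) of miR-193 (red), miR-193b (blue) and miR-365 (green), of the measured miRNAs that favour brown fat (gold) and of those that restrain it (purple), in each comparison, with a dotted line at the median of all 135 measured miRNAs. miR-378 is the lowest of the gold points in each panel (-0.77, -1.08 and -0.31), and miR-34a is the lowest purple point in both panels with early arousal.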

How the data were processed

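The data are 3 microarrays, 1 per pooled liver RNA, and the submitters' processing notes name Agilent Feature Extraction 9.5.3.1. The deposited intensity had, per the file headers, a spatial trend of the background subtracted and no local background. The headers record no scaling between arrays. The flags for detection and outliers are other values deposited with it, per the file headers. The deposited series table held the same intensity at all 12493 spots of each array, on a linear, uncentred scale, with medians of 1.13 in post-reproduction, 1.15 in late torpor and 1.05 in early arousal.

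Control spots and flagged outliers were left out. Spots at or below 0 were set to the lowest signal well above background on their array (8.49 to 10.7 units), which touched no spot of the 3 miRNAs. A probe was detected with more than 50% of its kept spots well above background. In all, 15.9 to 17.9% of 1712 probes were. log2 values were averaged per probe, scaled and averaged over probes. Spot intervals cover the spread of spots only, so precision is limited by having 3 arrays. Python 3.11.15 with numpy 2.4.6 was used, and limma 3.58.1 for normexp. The calculation was tested on spots simulated from the post-reproduction array with known changes. That simulation holds no spread between pools, so it does not bear on the differences between stages.

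Named were the 3 miRNAs, their star strands, the 3 miRNAs most like each, the neighbours in rank, and the highest, lowest and past-rule members of the brown fat lists. Cell markers and list members not measured were named outside that rule, to account for their lists. Members and lists were chosen with earlier results of these data known. Mature miRNA sequences were not used here. The alternatives were other scalings, background correction, signal summaries, detection, spots and the series table.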

Additional observations from a re-analysis of the deposited data

How the results depend on the processing

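Over 14 other settings, 80 of 126 log2 differences of the 3 miRNAs moved by less than 1 SD of the spots and kept their sign, 38 moved further and 8 changed sign. The 126 differences between miRNAs all kept sign and size by that measure. Settings that scale an array by 1 factor could not change these differences. The series table, with the same intensities, could change neither kind of value. Values below are for miR-193, miR-193b and miR-365 in that order, and LT, EA and PR stand for late torpor, early arousal and post-reproduction. Without scaling they were 0.28, -0.21 and 0.039 in LT minus PR and 0.047, -0.30 and 0.30 in EA minus PR. With the 75th percentile over all probes, miR-193b and miR-365 were at -0.14 and 0.10 in LT minus PR, and the 3 were at -0.14, -0.49 and 0.11 in EA minus PR and -0.49, -0.35 and 0.0060 in EA minus LT. With the median of detected probes, miR-193b and miR-365 were at -0.13 and 0.12 in LT minus PR, and the 3 were at -0.084, 0.055 and 0.41 in EA minus LT. After quantile normalization they were at 0.24, -0.14 and 0.075 in LT minus PR, with miR-193 and miR-365 at 0.10 and 0.34 in EA minus PR. The 75th percentile over all probes without replacing values at or below 0, chosen after seeing the data, gave 0.077, -0.41 and -0.16 in LT minus PR, 0.0495, -0.30 and 0.30 in EA minus PR and -0.027, 0.11 and 0.46 in EA minus LT. That percentile was 3.32 to 3.83 intensity units, among probes not detected. In the version with replacement, 37.5 to 39.8% of kept spots were first set to 8.49 to 10.7 units, which is above that percentile. With total intensity they were at 0.20, -0.31 and -0.083 in LT minus PR and 0.0016, -0.34 and 0.25 in EA minus PR. With strict detection they were at 0.23, -0.25 and -0.0059 in LT minus PR and -0.033, -0.38 and 0.22 in EA minus PR. With the brightest probe miR-193b was at 0.034 in LT minus PR. Scaling by 1 factor shifts all miRNAs of an array alike. Strict detection did the same: it moved all 3 miRNAs equally and left the differences between them as they were. The brightest-probe value of miR-193b is the difference of its longer probe alone. For quantile normalization the cause was not tested.

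None of the 3 miRNAs passed the rule of size under the 11 settings where it was counted. The measured miRNAs past it were 3 in LT minus PR, against 7 with the unreplaced all-probe percentile, 5 with strict detection and 1 with normexp. In EA minus PR they were 5, against 10 with all probes and 2 with normexp. In EA minus LT they were 4, against 0 with normexp, which added an offset of 50. The part of that offset was not tested. The median of all measured miRNAs ran from -0.26 to 0.18, -0.31 to 0.10 and -0.34 to 0.12 in the 3 comparisons. Both settings that keep only part of the array rows were chosen after seeing the data and changed no sign. The other floor for bounds was not run, since all 3 miRNAs were measured on every array. No paired analysis was possible because each stage has 1 array. Array signal over background limits the shorter miR-193 probe most, at 29.92 units in its dimmest spot.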
